A study of Mus musculus with 27 samples.

Results

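Zscan4c, Zscan4d, Zscan4f, Tcstv1, Tcstv3, Usp17la and Usp17lc are mouse genes of 3 multicopy families whose transcripts are known from the 2-cell embryo. They were followed as a list of 7 named genes, matched by Ensembl identifier in GENCODE M21, and 6 of the 7 were found among the 38123 genes of the expression tables. Tcstv1 (ENSMUSG00000096284) was not analysed here. The cells were a male (XY) mouse embryonic stem cell line, DTCM23/49, that carries a conditional Dicer allele in every group, controls included. In this line 800 nM 4-hydroxytamoxifen removes the RNase III domain of Dicer, the enzyme that cuts microRNA precursors to their mature form. They were cultured in serum and leukemia inhibitory factor (LIF) without feeder cells, on gelatin. Colonies that lacked Dicer were picked and expanded, so later days compare selected cells, kept in culture for longer, with untreated cells. Polyadenylated RNA was sequenced from whole cells before induction (day 0) and 4, 8, 10 and 12 days after it. It was also sequenced from nuclear and cytoplasmic fractions at days 0 and 12. Each of the 9 groups had 3 libraries described as biological replicates. Ethanol-treated control cells are mentioned in the protocol, but no library after day 0 carries that label, so every comparison over time is with day 0. Whether replicates were separate cultures from the start is not stated, so p-values reflect library-to-library spread, which may be partly technical.

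Zscan4 genes encode nuclear proteins with a SCAN domain and zinc fingers, and are transcribed in the late 2-cell embryo at the time the zygotic genome becomes active. In embryonic stem cell cultures they are known to switch on for a short time in a small share of cells, together with Tcstv and Usp17-like genes, in a state that resembles the 2-cell embryo and that has been linked to telomere lengthening. The Usp17-like genes encode deubiquitinating enzymes, while Tcstv proteins are little characterised. Because RNA was taken from whole cultures, more cells in such a state and more RNA in each such cell cannot be told apart in any value given here.

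The 5 members with measurable reads lie on chromosome 7 in 2 groups of tandem copies, and their promoters are shown because the copies within a group are nearly the same in sequence. On GRCm38 Zscan4c (ENSMUSG00000054272) spans 11005745 to 11010547, Zscan4d (ENSMUSG00000090714) 11161374 to 11166159 on the minus strand, and Zscan4f (ENSMUSG00000070828) 11397915 to 11402318. Usp17lc (ENSMUSG00000058976) spans 103415072 to 103419880 and Usp17la (ENSMUSG00000054568) 104857009 to 104862667. Tcstv3 (ENSMUSG00000095821) lies on chromosome 13, at 120316878 to 120318178. All are annotated as protein-coding genes. The sequences below, from RefSeq on GRCm38.p6, run 5′ to 3′ in the direction of transcription, from 150 bases before the RefSeq start to 30 bases after it. They cover chr7:11005595-11005774 on the plus strand (Zscan4c), chr7:11166119-11166298 on the minus strand (Zscan4d), chr7:11397765-11397944 on the plus strand (Zscan4f), chr7:104856866-104857045 on the plus strand (Usp17la) and chr7:103416546-103416725 on the plus strand (Usp17lc). Capitals mark TATAAA, the letters of a TATA box.
Zscan4c: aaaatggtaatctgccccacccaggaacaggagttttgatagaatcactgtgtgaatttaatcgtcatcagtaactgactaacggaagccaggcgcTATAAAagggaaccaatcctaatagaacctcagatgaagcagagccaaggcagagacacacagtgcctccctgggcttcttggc
Zscan4d: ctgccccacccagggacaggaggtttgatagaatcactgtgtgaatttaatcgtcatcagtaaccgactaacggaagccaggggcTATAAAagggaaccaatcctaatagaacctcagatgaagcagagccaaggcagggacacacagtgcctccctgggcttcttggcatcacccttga
Zscan4f: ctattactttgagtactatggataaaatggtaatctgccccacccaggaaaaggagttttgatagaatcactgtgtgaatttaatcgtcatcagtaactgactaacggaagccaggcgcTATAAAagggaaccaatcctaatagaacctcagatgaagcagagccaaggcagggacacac
Usp17la: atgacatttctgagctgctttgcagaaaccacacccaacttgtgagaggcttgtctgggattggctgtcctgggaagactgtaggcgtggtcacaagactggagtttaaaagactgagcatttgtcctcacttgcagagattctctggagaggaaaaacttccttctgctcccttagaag
Usp17lc: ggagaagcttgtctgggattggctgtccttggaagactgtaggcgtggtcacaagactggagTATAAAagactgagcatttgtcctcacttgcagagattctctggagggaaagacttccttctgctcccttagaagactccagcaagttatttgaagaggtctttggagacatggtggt
The TATAAA letters were searched after the sequences had been seen. They occur in all 3 Zscan4 members and in Usp17lc, but not in Usp17la, whereas 13.6% of 32851 RefSeq mouse promoter windows of 300 bases hold them on either strand. In Zscan4f the match begins at position -31 from the RefSeq start, and in Zscan4c and Zscan4d, whose starts are annotated further downstream, at -54 and -65. The promoter windows of Zscan4c and Zscan4f were 99.3% identical over 277 aligned bases, and those of Usp17la and Usp17lc 95.3% over 257. The other 2 motifs searched, on both strands, were the core of the motif known for the 2-cell factor Dux (GATTNAATC, in 0.268% of windows) and TGCACAC, described for Zscan4 protein (in 4.396%). Neither set of letters was present in the window of any member. Promoters were matched by symbol for these 5 of the 7 genes; those of Tcstv1 and Tcstv3 were not used here.

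The likeness extends through the transcripts and limits what can be said of a single copy. Zscan4c and Zscan4f transcripts were 99.6% identical over 1806 aligned bases. Of all stretches of 100 bases, the read length, 89.5% in Zscan4f, 72.8% in Zscan4c and 29.6% in Zscan4d also occur in another annotated copy of the family. The share was 32.3% in Usp17lc and 3.3% in Usp17la. How reads that match several copies were assigned is not given in the sources used here, so single Zscan4 values are uncertain relative to one another and sums over the family are given as well.

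The values are FPKM, sequenced fragments scaled to transcript length and to the size of the library. They move in steps of whole reads, from which relative depth could be recovered: 98.7% of 60185 low values came out whole within 0.1 read, as did 141 of 141 values of the gene copies described here. The step of each gene was set from its own smallest value, which is whole by construction. These shares are therefore partly built in and are no independent check of the read counts. Relative depth ran from 0.721 to 3.624 between libraries, with a mean of 3.289 in day 0 whole cells, so the later whole cell libraries are shallower than the controls they are compared with. Dicer1 itself fell from 15.012, 16.021 and 17.913 FPKM in day 0 whole cells to between 0.876 and 1.898 FPKM at days 4, 8 and 10 (limma adjusted p from 3.43e-08 to 6.79e-08). The whole cell libraries labelled day 12 had 16.661, 13.789 and 13.443 FPKM, a level at which Dicer1 did not pass the test against day 0 (log2 difference -0.15, limma adjusted p = 0.580). In the cytoplasm Dicer1 fell from between 21.2 and 23.494 to between 2.727 and 3.452 FPKM at day 12, and in the nucleus from between 7.86 and 16.78 to between 3.422 and 5.463. Whole cell values labelled day 12 therefore go against their label, are named as labelled throughout, and are not read as a return from day 10. The nuclear libraries that stood apart from their groups were 2, day 0 replicate 3 (correlation with the others 0.962 and 0.968) and day 12 replicate 1 (0.973 and 0.976), and nuclear results are also given without them. Among whole cells, day 4 replicate 3 stood apart to a like degree (0.975 and 0.967) and had the lowest relative depth, 0.721. No member passed at day 4 with any 1 library of days 0 and 4 left out. The 10 embryonic stem cell markers listed, among them Pou5f1 and Nanog, were each at or above a mean of 0.5 FPKM in all 9 groups. Their sum went from 3181.284–3228.096 FPKM in day 0 cytoplasm to 2030.972–2151.679 in day 12 cytoplasm. There 3 of 10 passed as lower and none as higher (16.6% and 16.0% of all genes), with a median of -0.39 against -0.01. The sum overlapped between day 0 and day 10 whole cells (2565.819–3195.603 and 2460.107–2656.917), where 2 passed as lower and 1 as higher (16.0% and 27.7%). It also overlapped between day 0 and day 12 nuclei (2135.188–5192.719 and 1275.621–3090.17), where 2 passed as lower and none as higher (21.6% and 15.1%). The part of these markers in the results was not tested.

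In whole cells the Zscan4 members were close to undetected until day 8 and higher at day 10. Zscan4f was at 0, 0.091 and 0.018 FPKM at day 0, at 0.111, 0.059 and 0.077 at day 4, at 0.127, 0.099 and 0 at day 8, and at 0.231, 0.604 and 0.579 at day 10. All 3 day 10 libraries lay above every earlier whole cell library, the lowest of them being replicate 1, which rests on 4 reads. Zscan4c was at 0, 0.038 and 0 FPKM at day 0, at 0.059, 0 and 0.082 at day 4, at 0.201, 0.053 and 0.192 at day 8, and at 0.305, 0.399 and 0.408 at day 10. For this copy day 8 was already above day 0 in all 3 libraries, as it was for 25.4% of genes, on 3, 1 and 3 reads, and day 10 was above day 8. Zscan4d was at 0.015, 0.054 and 0 FPKM at day 0, at 0 in all 3 libraries at day 4, at 0, 0 and 0.061 at day 8, and at 0.405, 0.227 and 0.322 at day 10. Its day 8 and day 0 libraries overlapped, while its day 10 libraries lay above both.

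No member reached a mean of 0.5 FPKM in a whole cell group, the level set for the test across genes; Zscan4f came nearest, at 0.471 ± 0.208 FPKM (SD, n = 3) on day 10. The tests below therefore come from the fit to all 25172 genes with any reads in whole cells, in which differences of log2(FPKM + 0.5) understate the change of genes this low. At day 10, 4 of the 5 members with reads passed as higher, against 18.2% of all genes in that fit. The differences were 0.84 ± 0.14 (SE) for Zscan4f (limma adjusted p = 7.12e-04), 0.76 ± 0.09 for Zscan4c (4.97e-05) and 0.64 ± 0.08 for Zscan4d (7.28e-05), and these calls held in each of 13 alternative analyses per gene. At day 8 only Zscan4c passed, against 12.5% of genes, with a difference of 0.33 ± 0.09 (limma adjusted p = 0.0245). That call was lost in 6 of 13 alternatives (adjusted p up to 0.0997), among them leaving out the 3 libraries labelled day 12, day 0 replicate 1 or 3, or day 8 replicate 1 or 3. At day 4 no member passed, against 2.86% of genes called higher, and the adjusted p-values of the 3 Zscan4 members were between 0.751 and 0.813. By exact permutation of 3 against 3 libraries the smallest possible p is 0.1, which Zscan4c, Zscan4d and Zscan4f each gave at day 10; 29.1% of all genes had day 10 libraries wholly above day 0.

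Levels of the Zscan4 members in the whole cell libraries labelled day 12 overlapped those of day 0. Zscan4c was at 0 FPKM in all 3, which allows up to 3 reads in the group. Zscan4d was at 0, 0.05 and 0.062, and Zscan4f at 0, 0.05 and 0. No member passed, against 5.66% of genes called higher, and the differences ran from -0.05 to 0.04 with limma adjusted p-values between 0.730 and 0.966. Since the days share their day 0 libraries, the 4 comparisons are not independent of one another. Over all 5 days the F-test passed for Zscan4c, Zscan4d and Zscan4f (limma adjusted p = 1.18e-04, 1.12e-04 and 0.00175), against 34.6% of genes, and still did so without the libraries labelled day 12.

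**Figure D1:**
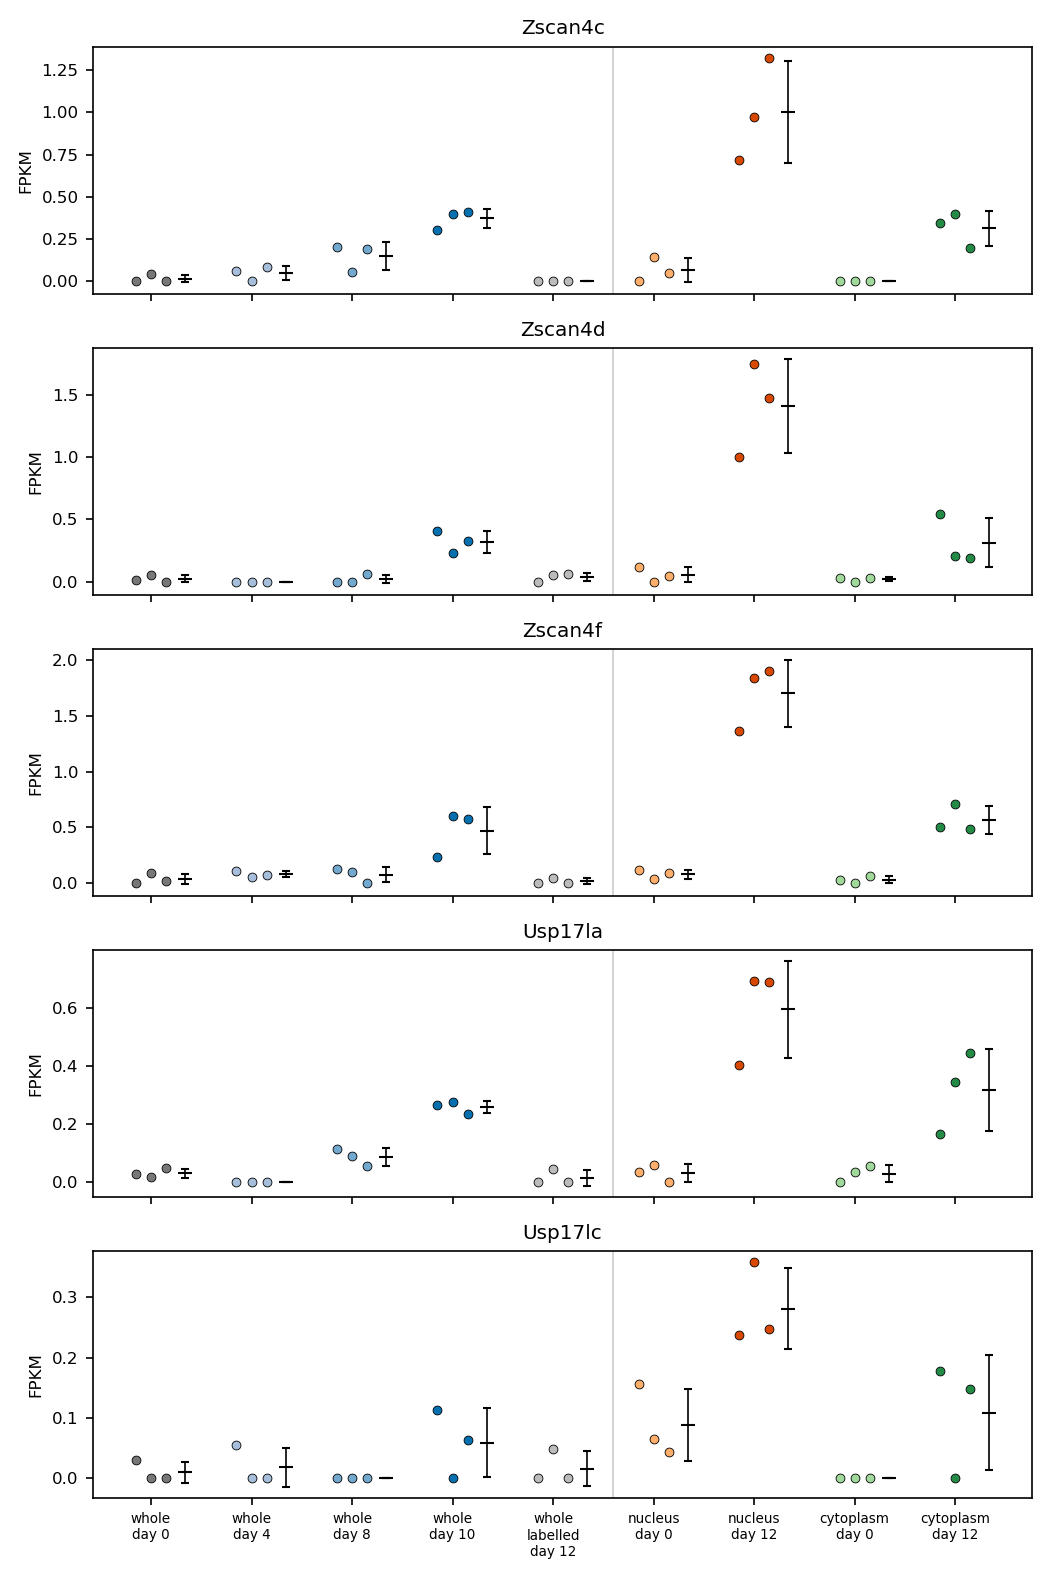
FPKM of the 5 members with reads (vertical axes, each with its own scale) in the 27 libraries by group (horizontal axis); points are libraries in order of replicate number, and the bar beside each group gives the mean ± SD of 3. The highest libraries of every member are nuclear libraries of day 12, where Zscan4f reached 1.908 and Usp17lc 0.358.

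The highest levels of all 9 groups were in the nuclear fraction at day 12. Zscan4f was at 0.118, 0.033 and 0.087 FPKM in day 0 nuclei and at 1.362, 1.841 and 1.908 in day 12 nuclei, on 34, 56 and 61 reads. Zscan4d was at 0.118, 0 and 0.044 and then at 1.003, 1.746 and 1.473. Zscan4c was at 0, 0.141 and 0.046 and then at 0.72, 0.973 and 1.322. For each copy the lowest day 12 nucleus was above the highest day 0 nucleus, as for 13.4% of genes, and replicate 1 was the lowest of the 3 day 12 libraries. The differences were 1.92 ± 0.16 for Zscan4f (limma adjusted p = 2.34e-05), 1.77 ± 0.21 for Zscan4d (1.81e-04) and 1.41 ± 0.19 for Zscan4c (3.56e-04), where 15.1% of the 17124 genes in this fit passed as higher. Zscan4c and Zscan4d entered this fit only through their day 12 nuclear mean, and Zscan4f through its day 12 nuclear and cytoplasmic means, so their passing the filter is no separate evidence. Without the 2 nuclear libraries that stood apart the differences were 2.05, 1.92 and 1.53, and they passed in every alternative run.

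In the cytoplasm the same copies went from almost no reads to low levels. Zscan4f was at 0.031, 0 and 0.062 FPKM at day 0 and at 0.505, 0.709 and 0.485 at day 12. Zscan4c was at 0 in all 3 day 0 libraries, which allows up to 3 reads, and at 0.343, 0.397 and 0.197 at day 12, on 9, 9 and 5 reads. Zscan4d was at 0.031, 0 and 0.031 and then at 0.542, 0.209 and 0.187. No Zscan4 member overlapped between the days, as was so for 25.6% of genes higher at day 12, although the day 12 level of Zscan4d was carried by replicate 1, with 15 of 25 reads. Zscan4f was higher by 1.00 ± 0.16 (limma adjusted p = 9.21e-04) and held in every alternative, where 16.0% of genes were called higher. Zscan4c was higher by 0.69 ± 0.19 (0.0165), a call lost without day 12 replicate 1 (0.058) or replicate 2 (0.067). The difference of 0.62 ± 0.21 for Zscan4d (0.0442) lost its call when any 1 of the 6 libraries was left out (adjusted p from 0.0507 to 0.177), with a pseudocount of 1 (0.0819), with a filter at 1 FPKM (0.0565) and with the replicate number as a block (0.0747). Zscan4c and Zscan4d are in this fit only through their day 12 nuclear level. Without the filter the limma adjusted p was 6.23e-04 for Zscan4f, 0.0106 for Zscan4c and 0.0411 for Zscan4d, against 10.1% of genes called higher.

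**Figure D2:**
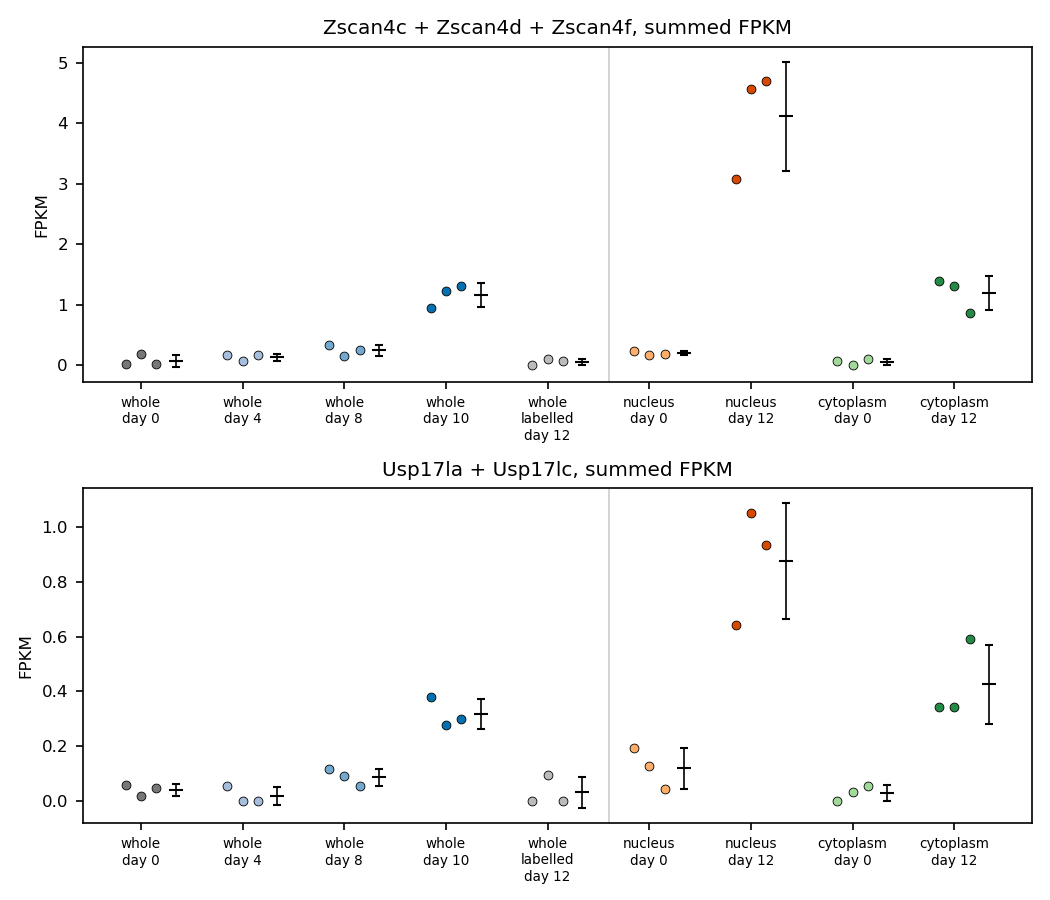
Summed FPKM of the 3 Zscan4 members (upper panel) and of Usp17la and Usp17lc (lower panel) in each library (points) by group (horizontal axis), with the mean ± SD of 3 libraries at the right of each group. Day 12 nuclei stand highest in both, at 3.084 to 4.702 FPKM for Zscan4 and 0.641 to 1.05 for the Usp17-like pair, and day 10 whole cells lie near day 12 cytoplasm.

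Summed over Zscan4c, Zscan4d and Zscan4f, which removes the choice between copies within the listed set, the order of the groups was clear at the top and not at the bottom. Day 12 nuclei had 3.084, 4.56 and 4.702 FPKM, day 12 cytoplasm 1.389, 1.315 and 0.869, and day 10 whole cells 0.941, 1.229 and 1.31. The last 2 groups overlapped, and both lay above all day 8 whole cell libraries (0.327, 0.152 and 0.253) and day 0 nuclei (0.236, 0.174 and 0.176), which overlapped each other. Day 4 whole cells (0.17, 0.059 and 0.159), day 0 whole cells (0.015, 0.183 and 0.018), the whole cell libraries labelled day 12 (0, 0.099 and 0.062) and day 0 cytoplasm (0.062, 0 and 0.092) overlapped at the bottom, and day 4 and day 0 whole cells each reached into the day 8 range. Of the 12 Zscan4 reads in day 0 whole cells, 10 were in replicate 2. With Zscan4b and Zscan4e added, the other copies in the files, the means were 5.401 ± 1.308 FPKM in day 12 nuclei, 1.389 ± 0.36 in day 12 cytoplasm and 1.475 ± 0.286 in day 10 whole cells (SD, n = 3).

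The reads behind these sums set their precision. Reads in the 3 Zscan4 members, scaled to depth, were 16.7 times as many in day 10 as in day 0 whole cells (52 against 12 reads, exact 95% interval 8.78 to 34.3). In day 12 nuclei they were 21.6 times as many as in day 0 nuclei (361 against 15 reads, 12.9 to 39), and in the cytoplasm 21.5 times as many (92 against 5 reads, 8.89 to 67.8). At day 8 the ratio was 3.38 (12 against 12 reads, 1.39 to 8.23), at day 4 it was 1.86 (0.572 to 5.34), and in the libraries labelled day 12 it was 0.804 (0.146 to 2.98). The last 2 intervals contain equality. The whole cell ratios rest on day 0 replicate 2: without it they were 68.9 at day 10 (52 against 2 reads, 18.1 to 584), 14 at day 8 (3.11 to 129), 7.67 at day 4 (1.37 to 77.7) and 3.32 in the libraries labelled day 12 (0.381 to 39.8). At day 8 the interval contained equality without day 0 replicate 1 (lower bound 0.943) or day 8 replicate 1 (0.942). The cytoplasmic ratio was 34.7 without day 0 replicate 3 (92 against 2 reads, 9.34 to 291), while the nuclear ratio stayed between 20 and 24.3 with any 1 library left out. These intervals cover counting error only, not the spread between libraries. They take each read as counted once, and are too narrow if reads matching several copies were counted in each of them.

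Of the Usp17-like members, Usp17la had its 3 highest group means in day 12 nuclei, day 12 cytoplasm and day 10 whole cells, like the Zscan4 sum. Usp17la was at 0.028, 0.017 and 0.048 FPKM in day 0 whole cells, at 0 in all 3 at day 4, at 0.116, 0.091 and 0.055 at day 8 and at 0.264, 0.276 and 0.236 at day 10. Day 10 lay above all earlier days without overlap, on 4 or 5 reads a library, and day 8 lay above day 0. Usp17la passed at day 10, by 0.51 ± 0.05 (limma adjusted p = 1.40e-05), and not at day 8 (0.14 ± 0.05, adjusted p = 0.0811). In the libraries labelled day 12 it was at 0, 0.045 and 0. The F-test over the 5 days gave an adjusted p of 1.59e-05 for Usp17la.

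In the fractions Usp17la was at 0.036, 0.061 and 0 FPKM in day 0 nuclei and at 0.403, 0.692 and 0.687 in day 12 nuclei, again with replicate 1 lowest. It was higher by 1.03 ± 0.18 (limma adjusted p = 0.00180, where 15.1% of genes passed as higher), and by 1.12 without the 2 nuclear libraries that stood apart. Usp17la entered this fit only through its day 12 nuclear mean, so its passing the filter is no separate evidence. Without the filter its limma adjusted p was 8.41e-04, against 9.89% of genes called higher. In the cytoplasm Usp17la went from 0, 0.034 and 0.056 to 0.165, 0.343 and 0.444, without overlap, a difference of 0.61 ± 0.18 (0.0257). That call was lost when day 0 replicate 1, 2 or 3 or day 12 replicate 2 or 3 was left out (adjusted p from 0.0564 to 0.106). Without the filter the limma adjusted p of Usp17la in the cytoplasm was 0.0132, against 10.1% of genes called higher. Usp17lc was barely detected: it was at 0.03, 0 and 0 FPKM in day 0 and at 0.114, 0 and 0.064 in day 10 whole cells, which overlapped (0.13 ± 0.07, adjusted p = 0.224). In nuclei it was at 0.156, 0.066 and 0.043 at day 0 and at 0.238, 0.358 and 0.248 at day 12, without overlap, on 7 and 25 reads. In the fit to all 26120 genes with reads in the fractions this was a difference of 0.41 ± 0.12 (adjusted p = 0.0311), against 9.89% of genes called higher there, and the call was lost in 9 of 13 alternatives (adjusted p up to 0.103). Its cytoplasmic values of 0, 0 and 0 at day 0 and 0.178, 0 and 0.148 at day 12 overlapped (0.27, adjusted p = 0.153).

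Scaled to depth, reads in Usp17la and Usp17lc together were 7.69 times as many in day 10 as in day 0 whole cells (16 against 8 reads, 95% interval 3.11 to 20.8) and 7.46 times as many in day 12 as in day 0 nuclei (83 against 10 reads, 3.86 to 16.1). In the cytoplasm the ratio was 14 (36 against 3 reads, 4.43 to 71.2), and 27.2 without day 0 replicate 3, which held 2 of those 3 reads, or 9.08 without day 0 replicate 1. Over all 6 Usp17-like copies in the files the ratios were 11.9 in day 10 whole cells, 8.59 in nuclei and 15 in cytoplasm, and the summed means were 0.862 ± 0.284, 2.1 ± 0.471 and 0.983 ± 0.274 FPKM in the later groups (SD, n = 3). Unlisted copies on the same chromosome were measured as well. Of these, Usp17lb and Zscan4e reached the filter only through day 12 nuclei, so all are given from the fit without it. Usp17lb had 0.623, 0.972 and 0.487 FPKM in day 12 nuclei and passed there as higher by 1.17 (limma adjusted p = 7.67e-04), against 9.89% of genes. Usp17le had 0.479, 0.54 and 0.327 and passed by 0.66 (0.00395). Usp17ld and Usp17le-ps stayed at or below 0.08 FPKM in those nuclei and did not pass. Among unlisted Zscan4 copies, Zscan4e had 0.613, 0.961 and 0.958 FPKM there and passed by 1.37 (3.61e-05). Zscan4b had 0.222, 0.364 and 0.736 and passed by 0.78 (0.00701). Of the unlisted copies only Usp17lb passed in cytoplasm (0.64, limma adjusted p = 0.0176), against 10.1% of genes. Zscan4e (0.0627), Zscan4b (0.534) and Usp17le (0.0523) did not. At day 10 Zscan4b (0.30, 0.00157) and Usp17le (0.46, 0.0181) passed, against 18.2% of genes, and Zscan4e (0.0575) and Usp17lb (0.0539) did not. Usp17ld and Usp17le-ps passed in neither. Tcstv3 was listed at 0 in all 27 libraries, so no value speaks for the Tcstv family.

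At day 12 the Zscan4 members were higher in the nucleus than in the cytoplasm. FPKM is relative to the other RNA of the same library, so such a ratio compares shares of 2 RNA pools and not amounts per cell. Since the filter admits most members through their nuclear level, the day 12 comparison is given from the fit without it. Zscan4d exceeded its cytoplasmic level by 1.24 (limma adjusted p = 0.00117), Zscan4f by 1.04 (5.10e-04) and Zscan4c by 0.88 (0.00294), 3 of the 5 members with reads, against 11.9% of genes called nuclear. Usp17lc did not pass (0.37, adjusted p = 0.0513), but did without both nuclear libraries that stood apart (0.41), without cytoplasmic replicate 1 (0.45) and with a pseudocount of 1 (0.21). Usp17la had overlapping fractions (0.403 to 0.692 FPKM in the nucleus, 0.165 to 0.444 in the cytoplasm) and did not pass (0.42, adjusted p = 0.0639). With the filter it passed only without nuclear replicate 1 (0.0341) or without both libraries that stood apart (0.0177). At day 0 none of the 4 members in the filtered fit passed (0.01 to 0.16, adjusted p from 0.519 to 0.988), where 25.3% of genes were called nuclear. Usp17lc, below that filter, did not pass without it (0.23, limma adjusted p = 0.194). Its day 0 nuclei nevertheless lay above its day 0 cytoplasm without overlap, as for 25.9% of genes. With quantile normalization the day 0 differences of Zscan4d, Zscan4f and Usp17la turned negative, without passing.

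The change of the ratio of nucleus to cytoplasm between the days was tested directly and no member passed with all libraries, where 0.274% of genes passed as higher. The changes were 1.15 ± 0.30 for Zscan4d (limma adjusted p = 0.0837), 0.92 ± 0.23 for Zscan4f (0.0759), 0.72 ± 0.27 for Zscan4c (0.207) and 0.42 ± 0.26 for Usp17la (0.467). These come from the filtered fit, which the members entered through their day 12 levels. Without the filter no member passed either (limma adjusted p from 0.0651 to 0.755), against 0.214% of genes called higher. Of the unlisted copies Zscan4e passed there (1.05, 0.0186), and Zscan4b, Usp17lb, Usp17ld, Usp17le and Usp17le-ps did not. In the filtered fit the 2 nuclear libraries that stood apart decide the call of the members. Without both, Zscan4d (1.3, 0.00678), Zscan4f (1.05, 0.00385) and Zscan4c (0.84, 0.0258) passed and Usp17la did not (0.51, 0.124). Without day 12 replicate 1 alone 2 members passed, and without day 0 replicate 3 alone 1 did.

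**Figure D3:**
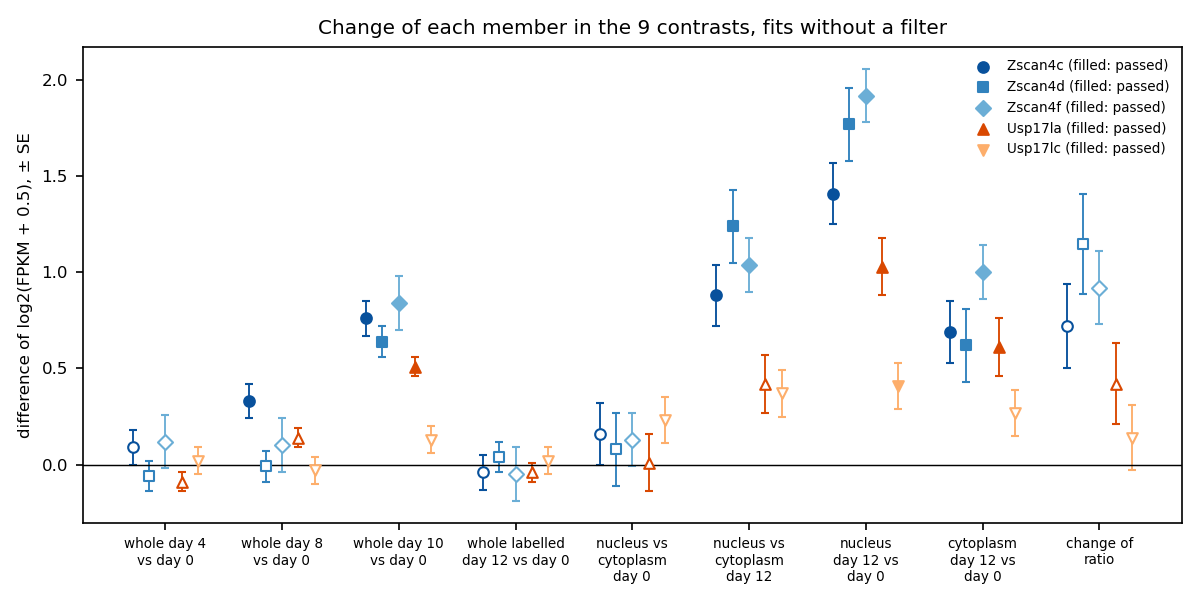
Difference of log2(FPKM + 0.5) ± SE (vertical axis) of the 5 members with reads in 9 comparisons (horizontal axis), from the fits without a filter on low values; filled symbols passed at an adjusted p of 0.05. Day 12 against day 0 nuclei have 5 filled symbols, day 10 whole cells and day 12 against day 0 cytoplasm 4 each, and the libraries labelled day 12 none.

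Markers of other cell types moved between the same groups, and their part in these results was not tested. The summed FPKM of 8 endoderm markers did not overlap between days: it went from 8.94–10.114 to 26.186–28.863 in day 10 whole cells, from 26.29–45.283 to 86.223–117.337 in nuclei and from 5.454–5.695 to 16.457–17.476 in cytoplasm. Most of it was Col4a1, a basement membrane collagen, with a mean of 100.38 FPKM in day 12 nuclei. With the filter 2 of 6 endoderm markers tested rose and none fell at day 10 (27.7% and 16.0% of all genes). In nuclei 2 of 4 rose and 1 fell (15.1% and 21.6%), and in cytoplasm 2 of 4 rose and none fell (16.0% and 16.6%). Without the filter the median of all 8 in nuclei was -0.01 against -0.03 for all genes. The 8 oocyte and germ cell markers went from 15.812–16.67 to 24.623–28.533 FPKM in whole cells, from 10.668–18.804 to 19.874–25.493 in nuclei and from 15.746–18.013 to 32.044–34.203 in cytoplasm. Much of this was Ddx4, a germ cell helicase, while the oocyte genes Bmp15 and Oosp1 were at means of at most 0.083 FPKM in every group. Of 3 tested with the filter none fell. Those that rose were 1 at day 10, 2 in nuclei and 1 in cytoplasm (27.7%, 15.1% and 16.0% of all genes). Without the filter 1 of 7 rose and 1 fell in nuclei (9.89% and 14.1%), with a median of 0.02 against -0.03. The 8 fibroblast markers summed to 34.93–98.734 FPKM in day 0 and 9.338–23.577 in day 12 nuclei, the opposite direction to the members, and in the cytoplasm went from 9.099–10.786 to 3.827–4.581. Of 5 tested with the filter 1 rose and 3 fell in nuclei (15.1% and 21.6% of all genes). In cytoplasm none rose and 1 fell (16.0% and 16.6%). In whole cells they summed to 10.071–10.922 at day 0 and 9.748–10.826 at day 10. Of the 4 that could be tested there with the filter 2 rose and 1 fell, where 27.7% and 16.0% of all genes did. Their median difference was 0.69 against 0.09. Of all 8 without the filter 4 rose and 1 fell, where 18.2% and 10.4% of all genes did.

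Other transcripts known from the 2-cell stage were mostly too low to reach the filter, and those tested moved in both directions. Of 75 such genes listed, 65 were in the files and only 15 in whole cells and 17 in the fractions reached the filter. At day 10, 4 of 15 passed as higher and 5 as lower (27.7% and 16.0% of all genes), with a median difference of 0.20 against 0.09 for all genes. In either direction 43.7% of all genes passed. In day 12 nuclei 3 of 17 rose and 5 fell (15.1% and 21.6% of all genes), with a median of -0.37 against -0.10. In the cytoplasm 5 rose and 7 fell (16.0% and 16.6%), with a median of -0.15 against -0.01. Without the filter 7 of 51 rose and 4 fell at day 10 (18.2% and 10.4%; median 0.00 against 0.01). There 8 of 53 rose and 6 fell in nuclei (9.89% and 14.1%), and the median was 0.12 against -0.03. In cytoplasm 3 rose and 7 fell (10.1% and 10.6%), with a median of 0.08 against 0.00. Listed genes at 0 in all 3 libraries went from 25 to 13 in nuclei and from 32 to 20 in cytoplasm. In whole cells they were 25 both at day 0 and at day 10. The same count was not made over all genes, so these numbers are not read as a result about the list. Ddit4l, an inhibitor of mTOR signalling, rose from 2.89 ± 0.341 to 9.566 ± 0.678 FPKM at day 10 (1.57, limma adjusted p = 8.59e-08) and in the cytoplasm (1.09, 0.0312), and did not pass in the nucleus (-0.30, 0.512). Pramef8, of the PRAME family, rose in all 3 comparisons, from 4.895 to 10.924 FPKM in whole cells (1.08, 3.18e-06). Usp26, a deubiquitinating enzyme, fell, most in the cytoplasm, from 11.881 ± 0.979 to 0.98 ± 0.159 FPKM (-3.07, 8.17e-06). Zfp750, a zinc finger factor, rose at day 10 (0.99, 1.82e-04) and in nuclei (0.39, 0.0469).

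Duxf3, Zfp352 and Chit1 fall outside the rule used to name genes and were picked after their values were seen. Duxf3, the copy in the files of the Dux factor that activates Zscan4 in the 2-cell embryo, was close to undetected, at means of 0.067 ± 0.026 and 0.051 ± 0.013 FPKM in day 0 and day 12 nuclei and of 0.005 ± 0.009 and 0 in day 0 and day 10 whole cells. Zfp352, a further 2-cell transcript, was at 0.164 ± 0.181 and 0.123 ± 0.021 FPKM in day 0 and day 12 nuclei. The nuclear values rest on 6 and 5 reads for Duxf3 and 11 and 10 for Zfp352, at which no rise was detectable. In day 0 and day 12 cytoplasm Duxf3 had 0 and 4 reads and Zfp352 had 1 and 3. Zfp352 had 6 and 1 reads in day 0 and day 10 whole cells. With so few reads neither a rise nor its absence can be read from these values. Chit1, a chitinase on the 2-cell list, went from 0.209 ± 0.072 to 2.05 ± 0.965 FPKM in nuclei (1.77 ± 0.30, limma adjusted p = 0.00139).

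Known activators of the 2-cell programme were counted in the same comparisons. Of 11 listed, 9 were tested, and 4 passed as higher and 1 as lower at day 10 (median 0.31 against 0.09), where 27.7% of all genes passed as higher and 16.0% as lower. In day 12 nuclei 3 of 9 rose and none fell (15.1% and 21.6% of all genes), with a median of 0.50 against -0.10. In the cytoplasm 4 of 9 rose and 1 fell (16.0% and 16.6%), with a median of -0.01 against -0.01. Dppa2, a chromatin factor upstream of Dux, rose from 56.578 ± 2.655 to 88.156 ± 0.956 FPKM at day 10 (0.64, limma adjusted p = 7.25e-05), in nuclei (1.09, 3.12e-05) and in cytoplasm (0.92, 6.29e-05). In the libraries labelled day 12 it was below day 0 (-0.56, 9.56e-04). Gata2, a transcription factor reported to act on retroviral promoters of this programme, rose from 0.993 ± 0.235 to 4.012 ± 0.732 FPKM at day 10 (1.60, 1.55e-05), in nuclei (1.29, 1.09e-04) and in cytoplasm (0.54, 0.0135). Trp53, encoding p53, rose by 0.49 at day 10 (6.13e-05), by 0.62 in nuclei (0.00103) and by 0.46 in cytoplasm (0.00527). Nelfa, a subunit of the negative elongation factor, fell at day 10 (-0.36, 0.0283) and in cytoplasm (-0.53, 0.00378).

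Repressors of the programme passed in both directions and about as often as all genes at day 10, 15 of 34 against 43.7%, with 11 of 34 in nuclei (36.7%) and 14 of 34 in cytoplasm (32.6%). Of these, 7 rose and 8 fell at day 10 (median -0.02 against 0.09 for all genes), 5 rose and 6 fell in nuclei (0.12 against -0.10), and 6 rose and 8 fell in cytoplasm (-0.11 against -0.01). Sumo2, which encodes a small ubiquitin-like modifier, fell from 187.496 ± 10.083 to 69.557 ± 3.56 FPKM at day 10 (-1.42, limma adjusted p = 4.60e-08) and in the libraries labelled day 12 (-1.10, 1.63e-06). Chaf1b, a subunit of chromatin assembly factor CAF-1, fell at day 10 (-0.72, 1.60e-05), in nuclei (-0.91, 0.00269) and in cytoplasm (-1.13, 7.25e-04). Suv39h1, a methyltransferase of constitutive heterochromatin, rose at day 10 (0.84, 8.21e-06) and in cytoplasm (0.90, 1.66e-04). Rnf2, a Polycomb ubiquitin ligase, rose from 32.618 ± 2.856 to 42.517 ± 1.335 FPKM at day 10 (0.38, 0.00163) and was lower in the libraries labelled day 12 (-0.52, 6.76e-04).

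Of 18 telomere genes listed, 17 were tested. At day 10, 1 rose and 6 fell (27.7% and 16.0% of all genes; median -0.20 against 0.09), so the 7 called were near the 43.7% of all genes called. In nuclei 1 rose and 6 fell (15.1% and 21.6%; -0.28 against -0.10), and in cytoplasm none rose and 9 fell (16.0% and 16.6%; -0.45 against -0.01). The shelterin subunits Acd and Pot1a changed by -0.90 and -0.75 at day 10 (limma adjusted p = 4.37e-06 and 2.06e-05), and by -1.16 and -0.91 in cytoplasm (6.69e-04 and 2.63e-04). Dmc1, a meiotic recombinase, went from 5.874 ± 1.31 to 2.329 ± 0.591 FPKM at day 10 (-1.18, 3.59e-04) and also fell in nuclei (-1.35, 0.00363) and cytoplasm (-1.52, 0.00176). Rpa1, a subunit of the single-strand DNA binding protein, was named for its lower nuclear level at day 0 (-1.26, 3.37e-05) and had 66.028 ± 3.564 and 58.664 ± 1.757 FPKM in day 0 and day 10 whole cells.

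**Figure D4:**
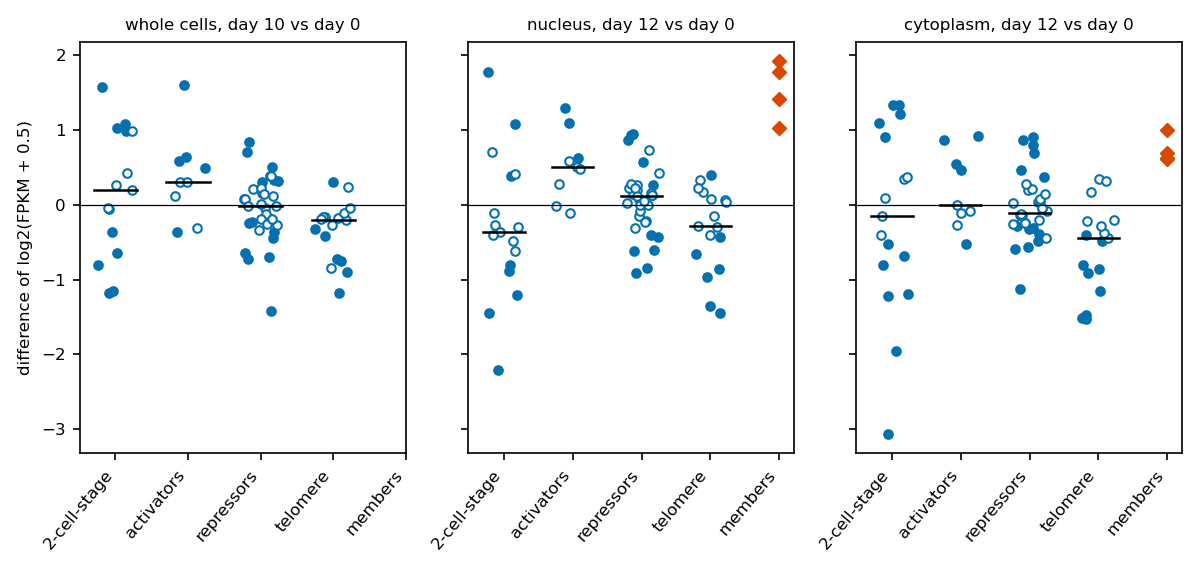
Difference of log2(FPKM + 0.5) (vertical axis) of each tested gene of 4 lists and of the members (horizontal axis) in 3 comparisons (panels); filled points passed at an adjusted p of 0.05 and lines are list medians. The members column is empty for whole cells, where no member reached 0.5 FPKM, and its 4 points in nuclei lie between 1.03 and 1.92.

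Members also varied together across libraries. Over the 27 libraries the Pearson correlation of log2(FPKM + 0.5) was 0.95 between Zscan4c and Zscan4f, 0.92 between Zscan4c and Zscan4d, and 0.94 between Zscan4f and Usp17la, genes of different families. It was 0.75 between Usp17la and Usp17lc. The points are 9 groups of 3 libraries that share their high groups, and values of Zscan4 copies can include reads that match several of them. Of 17089 genes outside the families, the 8 most like the Zscan4 sum over the 27 libraries were Megf11 (0.976), Adgrg6 (0.961), Gm53 (0.957), Aox3 (0.95), Plekha6 (0.949), Gsdmd (0.945), Naalad2 (0.945) and Ccl2 (0.94). Megf11 was at group means of 0.16 FPKM in day 0 whole cells, 2.29 at day 10, 7.11 in day 12 nuclei and 2.85 in day 12 cytoplasm. A correlation of at least 0.9 was reached by 75 genes and of at least 0.8 by 582. None of the 8 was among the 8 most like over the 15 whole cell libraries, and 3 (Megf11, Plekha6 and Adgrg6) were over the 12 fraction libraries, so the names depend on which libraries are used. They also depend on the measure: by Spearman correlation over the 27 libraries the 8 most like were led by Gbp4 (0.937), Olfml3 (0.919) and Nptn (0.918), shared no name with those above, and 10 and 437 genes reached 0.9 and 0.8.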

How the data were processed

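Polyadenylated RNA of 27 libraries was sequenced as directional pairs of 100 bases, per the labels' protocols. The authors deposited FPKM per Ensembl gene for each library. TopHat2 2.0.9, Cufflinks 1.3.0 and build mm9 are named per the submitters' processing notes; how reads matching several copies were handled is not given in the sources used here. Identifiers were matched to GENCODE M21 (36253 of 38123 genes); coordinates and copy comparisons are on GRCm38, and no coordinate was carried from mm9. Tests used limma 3.58.1 in R 4.3.3 (trended variance) on log2(FPKM + 0.5), with separate fits to the 15 whole cell and 12 fraction libraries, genes kept where 1 group averaged 0.5 FPKM or more (15991 and 17124 genes), and Benjamini-Hochberg adjustment at 0.05 over all genes kept. Members under the filter were tested in the same fits without it. Single values were compared by exact 2-sided permutation. Relative depth and whole reads came from the steps of the FPKM values, and count ratios have exact conditional binomial intervals. The fits were checked on simulated data.

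The members and the gene lists were chosen with earlier results of these data known. Named beside the members were up to 4 genes of each list with the lowest adjusted p in any comparison, and the 8 genes most correlated with the Zscan4 sum. Alternatives were other pseudocounts (0.1 and 1), filters (none and 1 FPKM), median-of-ratios and quantile scaling, a block for replicate numbers, fits to the compared groups alone, and each replicate left out. Leaving out 2 nuclear libraries, the alternatives to the unfiltered fits, and read ratios with each library left out, were chosen after seeing the data. Python 3.11.15, scipy 1.17.1, pandas 2.3.3 and Biopython 1.88 were used.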

Additional observations from a re-analysis of the deposited data

How the results depend on the processing

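Calls for these genes rest on few reads, so the level of the filter decides most of the whole cell counts. With no filter 1 member passed at day 8 (12.5% of all genes called higher) and 4 at day 10 (18.2%). Over the 5 days 4 passed (34.6% of all genes called). With the filter the count was 0 in each because no member was tested. Leaving out 1 library at a time gave 0 to 1 with the filter at day 10 and over the 5 days. The 1 was Zscan4f, whose day 10 mean reached the filter only without its lowest library, replicate 1. Without the filter, the day 8 count of 1 became 2 with quantile normalization and 0 with only the groups compared or without the 3 libraries labelled day 12, and ran from 0 to 1 with a library left out. The 4 members called in the cytoplasm became 2 with a filter at 1 FPKM, where 3 members were tested, Usp17la not among them, and Zscan4d lost its call. They became 1 with only the groups compared, where only Zscan4f was tested, and 1 to 2 with a library left out, where all 4 were tested on fewer libraries. The count for the change of the nuclear ratio, 0, ran from 0 to 2 with a library left out and was 3 without the 2 nuclear libraries that stood apart.

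Among single members, only differences that had not passed changed sign. With quantile normalization the nuclear against cytoplasmic differences at day 0 were -0.15 for Zscan4d, -0.17 for Zscan4f and -0.24 for Usp17la. With a library left out, Usp17lc ranged from -0.03 to 0.05 both at day 4 and in the libraries labelled day 12, Zscan4d from -0.06 to 0.03 at day 8, Zscan4f from -0.10 to 0.02 in the libraries labelled day 12, and Usp17la from -0.04 to 0.05 between the fractions at day 0.

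Replicate numbers did not pair the libraries: in no comparison did all 3 same-numbered pairs correlate above 0.1 (range -0.35 to 0.26), and only at day 8 did all 3 correlate best with their own number. With the replicate number as a block, Zscan4d in the cytoplasm (adjusted p 0.0747) and Usp17lc in nuclei (0.0501) no longer passed, and no other call of a member was lost.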
